A study of Drosophila melanogaster with 2 samples.

Results

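Binding of the zinc-finger protein CG10348 was examined at cbt and the related KLF/Sp family genes, 7 protein-coding genes of 13945: cbt, luna, dar1, Klf15, Spps, Sp1 and btd. A region belonged to a gene when its summit lay inside the gene, or when the transcription start site (TSS) nearest to the summit lay within 10 kb and was a TSS of that gene. The lists of regions came from chromatin immunoprecipitation and sequencing (ChIP-seq) with an antibody to GFP. The chromatin came from whole Drosophila melanogaster pupae aged 2 days that carried CG10348 fused to eGFP. The 2 biological replicates formed 1 group, so no treated or mutant animals were compared. The labels named an insertion that targets CG10348 and no driving promoter, and whole animals mix all tissues, so the cells that gave a signal are not known.

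The authors ranked regions by the irreproducible discovery rate (IDR), which is low where 2 peak lists both place a region at similar ranks near the top. A region with a score of 830 or more (an IDR of about 0.01) is called passing here. The 4 ranked lists hold regions of any score, and the 4 thresholded lists hold a selection of passing ones. Among passing regions of the ranked list that compared the replicates, 4 of 1910 belonged to the family: 2 to cbt, 1 to luna and 1 to dar1. The conservative thresholded list held 2 family peaks of 1814, and the optimal list, the other thresholded list of the pooled samples, held 3 of 1934. Each replicate's own thresholded list held 2 family peaks, of 1284 in replicate 1 and 1027 in replicate 2. At least 1 passing region of the replicate comparison belonged to 3 of the 7 genes, beside 10.4% of all protein-coding genes. A conservative peak belonged to 2 of the 7, beside 10.2% of all genes, and an optimal peak to the same 2, beside 10.6%. In replicate 1 a thresholded peak belonged to 2 of the 7, beside 7.72% of all genes, and in replicate 2 to 2, beside 6.45%. Passing regions of the pooled ranked list belonged to 3 of the 7, beside 10.8%, those of replicate 1 to 3, beside 7.85%, and those of replicate 2 to 3, beside 6.57%. The genes were chosen by the measured signal and score of their regions in these lists, so these counts and the ranks below are a description, with no test.

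KLF and Sp proteins are transcription factors whose zinc fingers, close to the C-terminal end, bind GC boxes and CACCC-type sequences. They act as activators or repressors of genes for growth, metabolism and cell differentiation. Cabut, the product of cbt, is the fly relative of the mammalian TGF-beta-inducible early genes and acts in dorsal closure, in the ecdysone response of metamorphosis and as a repressor in the response to dietary sugar.

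The sequences of both cbt regions and of the strongest dar1 region are shown because these regions had the highest signals of the family. They are the plus strand of the RefSeq genome, on the dm6 assembly. Capitals mark matches, on either strand, to the words CACCC and GGGCG (KLF/Sp-type), to TAATTA (homeodomain-type), GATAA (GATA-type), GAGAG (GAGA-type) and ACGTG (bHLH-type), and to the AT-only words AAATAT and also TTAAAA. The first is the whole region with its summit 1408 bp upstream of the cbt TSS (chr2L:480958-481237), the next the whole region 377 bp upstream (chr2L:480042-480140), and the last the 300 bp around the dar1 summit (chr3L:3632492-3632791).
cbt far region: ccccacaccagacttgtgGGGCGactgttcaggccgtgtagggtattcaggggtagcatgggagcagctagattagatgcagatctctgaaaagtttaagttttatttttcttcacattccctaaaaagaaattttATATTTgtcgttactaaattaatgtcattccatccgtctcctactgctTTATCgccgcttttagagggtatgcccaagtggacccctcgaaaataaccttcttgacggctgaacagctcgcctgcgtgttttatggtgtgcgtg
cbt near region: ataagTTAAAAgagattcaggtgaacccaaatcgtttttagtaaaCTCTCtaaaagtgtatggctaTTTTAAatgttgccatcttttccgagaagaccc
dar1 region: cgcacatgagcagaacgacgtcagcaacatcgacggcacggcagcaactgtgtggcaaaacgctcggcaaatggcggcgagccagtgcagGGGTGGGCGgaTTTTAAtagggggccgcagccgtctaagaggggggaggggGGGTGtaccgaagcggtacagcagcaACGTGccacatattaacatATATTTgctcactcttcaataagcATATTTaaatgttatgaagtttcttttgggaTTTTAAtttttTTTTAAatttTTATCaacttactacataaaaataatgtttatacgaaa

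The strongest family region lay upstream of cbt. The gene (FBgn0043364) spans 2L 476446 to 479688 on the minus strand, with 3 annotated transcripts that share 1 TSS. The far region had a pooled signal of 882 (the authors' peak strength, on a scale that was not stated), and only 2 of all 138658 ranked regions were stronger. Its signal was 449 in replicate 1, rank 3 there, and 444 in replicate 2, rank 2. The replicates' summits were 17 bp apart, at 1409 and 1426 bp upstream of the TSS.

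The near region had a pooled signal of 211 and ranked 175th in the same list. Its signal was 114 in replicate 1 and 102 in replicate 2, with summits 15 bp apart. The far region was 4.19 times as strong as the near one in the pooled values, 3.92 times in replicate 1 and 4.34 times in replicate 2. The summits lay 1031 bp apart. Both regions had the top score of 1000 in all 4 ranked lists.

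Both cbt summits also lie inside ush (u-shaped, a Friend-of-GATA cofactor), in an intron of transcripts that start 226 bp beyond the 3′ end of cbt and run across it on the other strand. The nearest ush TSS was 4876 bp from the far summit and 3845 bp from the near one. Which of the 2 genes, if either, the regions serve cannot be told from these lists. No region inside the cbt gene itself passed. The strongest there, at 2L 476995 to 477330 in a coding exon, had a pooled signal of 44.5 and a score of 330. In replicate 2, a region 949 bp upstream of the TSS, between both passing regions, had a signal of 35.0 and a score of 820, just short of passing. The region nearest to that place, 906 bp upstream, scored 49 in the replicate comparison and 51 in the pooled ranked list, and in replicate 1 a region there had a signal of 10.35 and a score of 26.

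**Figure D1:**
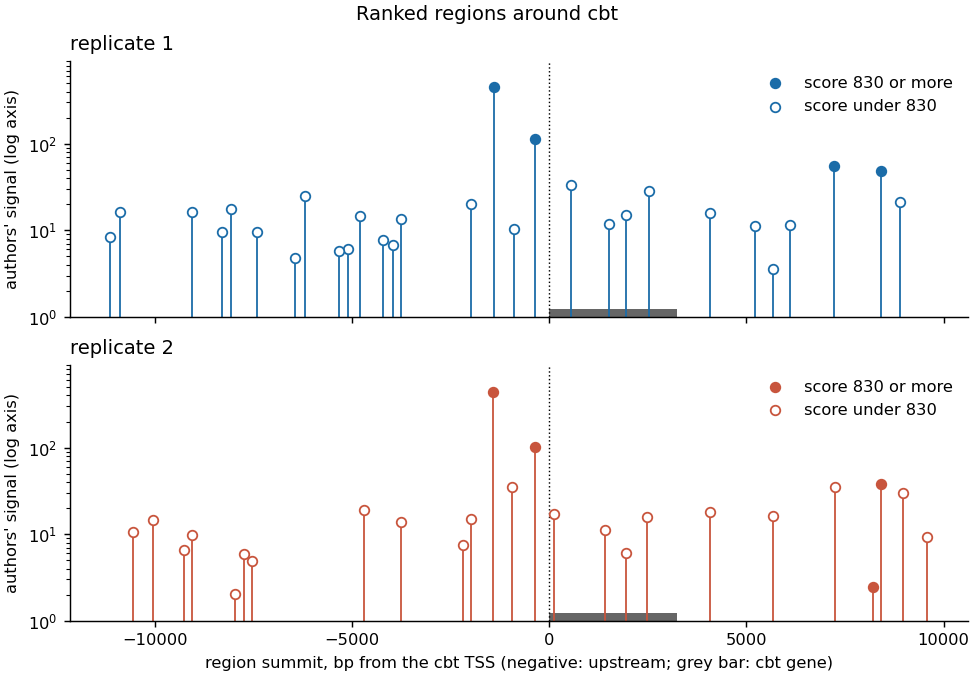
Ranked regions around cbt in each replicate: each stem is 1 region, placed by its summit's distance from the cbt TSS in bp (negative is upstream), with the authors' signal on a log axis. Filled points passed (a score of 830 or more) and open points did not; the regions 1.4 kb and 0.4 kb upstream stand out in both replicates, at 449 and 114 in replicate 1 and 444 and 102 in replicate 2.

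Neither cbt region was in any of the 4 thresholded lists. The ranked list of the replicate comparison had 96 passing regions that the conservative list did not hold (5.03% of 1910), 61 of them on the main chromosome arms. The far cbt region was the strongest of all 96, and the next strongest on the main arms had a pooled signal of 482 at 3R 24109070 to 24109338. It was likewise the strongest passing region absent from the optimal list (105 absent), from the list of replicate 1 (62) and from that of replicate 2 (61). Of the 96 regions absent from the conservative list, 72 had the top score of 1000.

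The absence covered a stretch and not the cbt regions alone. From the start of CG4297 to the far cbt region, 4 passing regions of the replicate comparison lay in a row, and none was in the conservative list. The other pair had pooled signals of 83.8 at 2L 471118 to 471453 and 88.6 at 2L 472304 to 472639. The nearest conservative peaks were 43.9 kb from the cbt TSS on the ex side, with a signal of 61.2, and 124.6 kb away on the CG13689 side, with 68.8. The optimal list held a peak 10.8 kb away, in CG4297, with 59.9. These distances also depend on where any region passed, so they do not give the length of the absent stretch. Per the deposited text, the thresholded lists drew on a further file that the ranked lists did not, and its role was not stated.

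Repeated sequence was measured for the same regions. None of the 31-base words of either cbt region occurred elsewhere in the RefSeq genome. More than 50% of such words were repeated in 13 of the 61 absent regions on the main arms (21.3%), against 2 of 1799 conservative peaks (0.1%). The part that the further file or any other property played in the absence of the cbt regions was not tested.

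**Figure D2:**
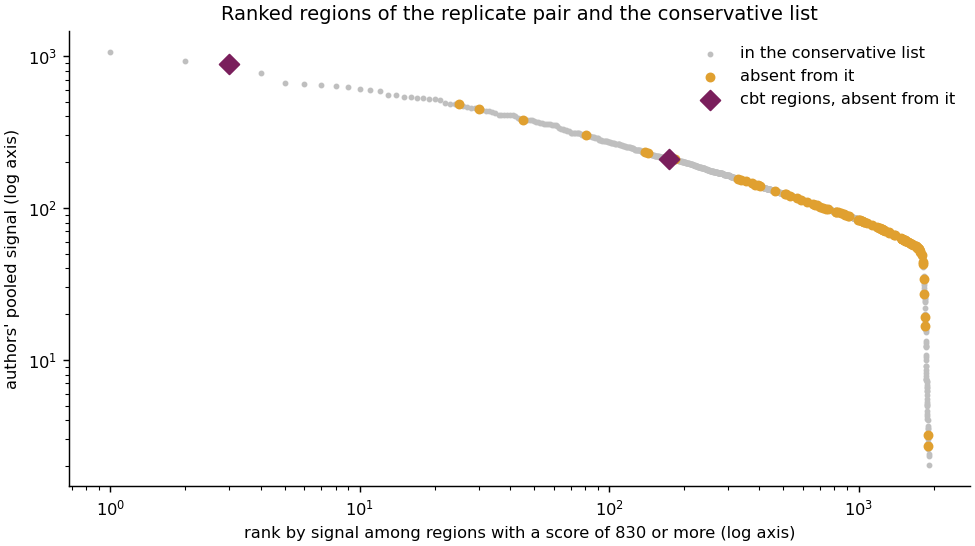
The 1910 passing regions of the replicate comparison, by rank (log axis) and the authors' pooled signal (log axis), with regions of the conservative list in grey and those absent from it in orange. The diamonds are the cbt regions, with signals of 882 and 211, both absent from the conservative list.

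Around the near cbt summit the sequence was AT-rich within GC-rich flanks. G and C made up 30% of the 100 bp around that summit and 63.0% of the windows centred 300 bp to each side, a difference of -33.0 percentage points. Of the 1799 main-arm peaks of the conservative list, 1.5% had a lower difference. The far summit had 27.0% and its flanks 45.5%, a difference of -18.5 points. The luna summit of the conservative list had 33.0% and 46.0%, while dar1 had 53.0% and 50%, a difference of 3.0 points in the other direction. Over all 1799 conservative peaks the difference was -9.67 ± 13.2 points (mean and SD over peaks), and the summit was lower in G and C than its flanks in 78.8%.

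The dar1 summit sat at the edge of an AT-rich stretch. The window with the least G and C (17.0%) was centred 100 bp downstream of the pooled summit on the plus strand. The replicates' own summits lay 34 bp apart, 6330 and 6296 bp downstream of the TSS. At cbt the lowest window was within 20 bp of the summit for both regions.

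**Figure D3:**
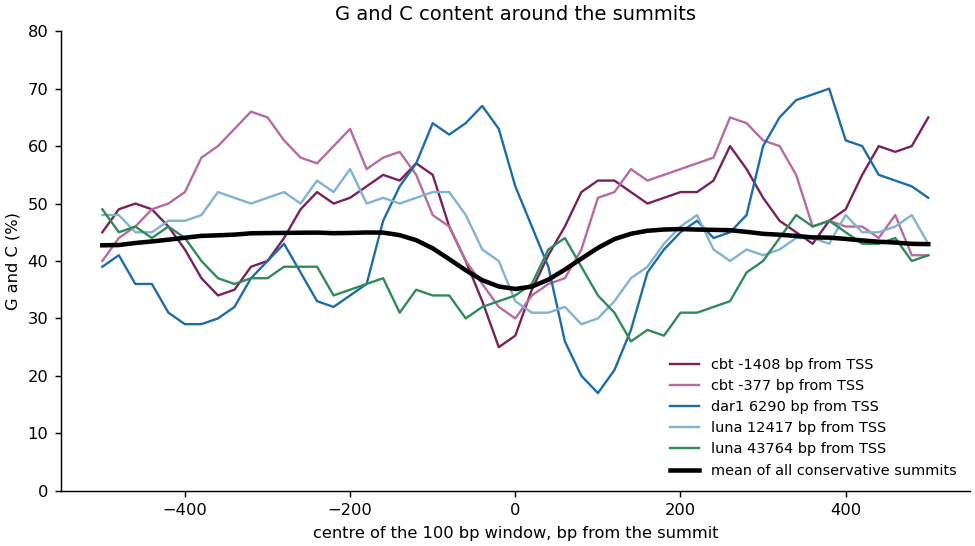
Share of G and C in 100 bp windows, in percent, by the window's distance in bp from the summit, for the 5 passing family regions of the pooled ranked list and, in black, the mean of all conservative summits. Each family curve is 1 region with no error; both cbt curves dip at the summit like the mean, to 25% and 30%, and the dar1 curve dips 100 bp to its right, to 17.0%.

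The words marked in the printed sequences were counted around the summits. The 100 bp around the far summit held AAATAT once, and the 100 bp around the near summit held TTAAAA at 2 places and GAGAG once. AAATAT was in 30.1% of conservative summit windows, TTAAAA in 31.9% and GAGAG in 9.2%. Neither cbt summit window held CACCC (8.7% of conservative windows) or GGGCG (5.7%), although GGGCG lay at position 19 of the far region. The 100 bp around the dar1 summit held CACCC once and no GGGCG. The whole dar1 region, of 336 bp, held CACCC at 2 places, as GGGTG on the plus strand, and the first of these shares bases with GGGCG. The windows set beside it next are shorter than this region. The word CACCC was in 26.3% and GGGCG in 22.8% of 280 bp windows around conservative summits, and in 23.7% and 21.2% of all promoters (250 bp before to 50 bp after a TSS). TAATTA was in none of the 5 family regions over their whole length, beside 18.7% of 280 bp windows around conservative summits. A match is a string of letters and was not shown to be a site, and a missing word says only that these letters were not in the window.

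dar1, named for dendritic arbor reduction, controls the growth of dendrites in neurons. It carried the strongest family peak of the thresholded lists. The gene (FBgn0263239) spans 3L 3626352 to 3653442 on the plus strand. The peak lay in an intron at 3L 3632474 to 3632809, 6290 bp downstream of its only annotated TSS, and the nearest TSS of another gene, CG14974, was 11610 bp away. Its pooled signal was 172.5, place 255 of 1814 in the conservative list, with 99.8 in replicate 1 and 71.8 in replicate 2. It was present in all 4 thresholded lists and had the top score in all 4 ranked lists. A further intronic region 8171 bp from the TSS had a pooled signal of 52.4 and a score of 801 in the replicate comparison, just short of passing. Its score was 56 in the pooled ranked list, and the overlapping regions scored 25 in replicate 1 and 23 in replicate 2. At that region both replicates were close, with 26.3 in replicate 1 and 25.2 in replicate 2.

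luna, an essential gene of the early embryo and a relative of mammalian KLF6, is by far the longest of the 7 genes. It spans 2R 10977956 to 11116378 on the minus strand (FBgn0040765) and has 2 TSSs and 177 ranked regions in the replicate comparison. Of these 1 passed, in an intron at 2R 11094231 to 11094566, 12417 bp downstream of the nearest luna TSS and 8813 bp from the TSS of CG43188, a gene nested in luna. Its pooled signal was 85.9, with 47.2 in replicate 1 and 27.3 in replicate 2. A second intronic region, at 2R 11062884 to 11063219 and 43764 bp from the nearest luna TSS, had a pooled signal of 61.1 and passed in the pooled ranked list with a score of 933, the lowest passing score of the family in that list. In the replicate comparison its score was 682.

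The replicates did not call the same luna region. Replicate 1 called the region near CG43188 (47.2) and not the other, and replicate 2 called the deeper one (41.2) and not the first, where its region had a signal of 27.3 and a score of 359. dar1 and both cbt regions passed in each replicate.

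**Figure D4:**
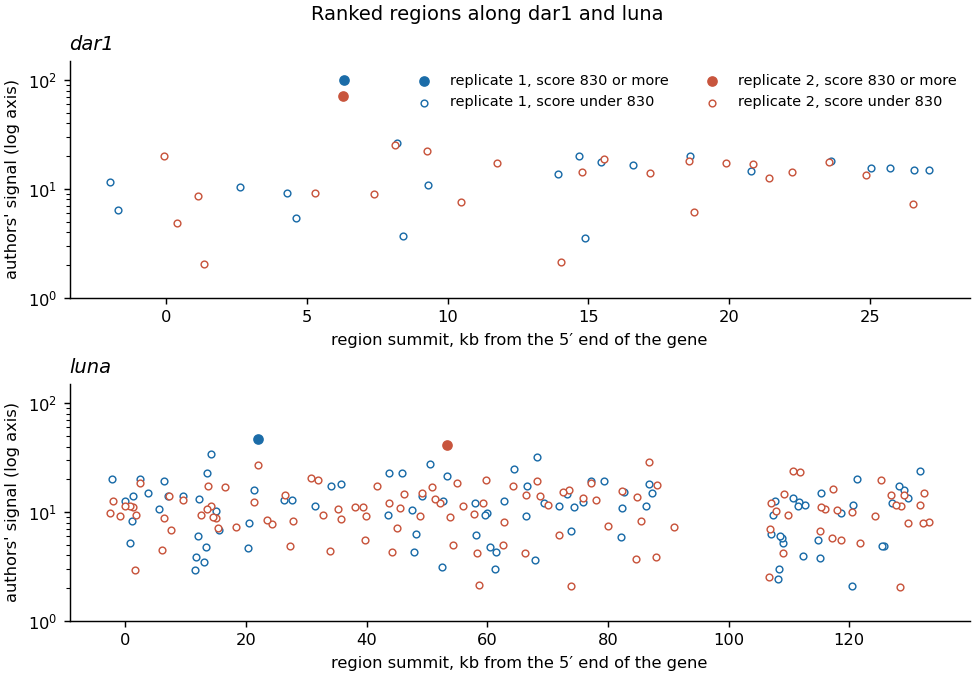
Ranked regions along dar1 (upper panel) and luna (lower panel), by distance in kb of the summit from the 5′ end of the gene and the authors' signal on a log axis, in both replicates. Filled points passed; at dar1 they coincide at 6.3 kb (99.8 in replicate 1, 71.8 in replicate 2), and at luna they are different regions (47.2 in replicate 1, 41.2 in replicate 2).

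Signal at the 4 passing regions was compared between the replicates. The log2 ratio of replicate 1 to replicate 2 was 0.02 at the far cbt region, 0.16 at the near one, 0.48 at dar1 and 0.79 at luna. Of the conservative peaks, 1779 overlapped a region of each replicate, and over these the median ratio was 0.28 and the SD 0.47. A ratio at least as close to 0 as that of the far cbt region was found at 42 of the 1779, and one at least as close as that of luna at 1511, luna included. Peaks are not independent replicates.

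None of the other 4 genes had a passing region in any list. Sp1 and btd, a pair of neighbouring Sp factor genes on X that act in the legs and other ventral appendages, had their strongest pooled regions upstream of their TSSs. Sp1 (FBgn0020378; X 9729648 to 9756369) had its strongest pooled signal, 47.0, 2173 bp upstream of its TSS. The score there was 719 in the pooled ranked list and 459 in the replicate comparison, with 24.2 in replicate 1 and 17.9 in replicate 2. At btd (FBgn0000233; X 9694186 to 9697558), also a head gap gene of the embryo, the strongest region lay 206 bp upstream of the TSS with a pooled signal of 40.5. There the signal was 31.1 in replicate 1 and 9.51 in replicate 2, and the score in the replicate comparison was 51.

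Klf15 and Spps were lower still by pooled signal. Klf15 (FBgn0025679; X 4770557 to 4771588), a nephrocyte factor, had a strongest pooled signal of 30.2 at 2038 bp upstream of its TSS, with 18.8 in replicate 1 and 15.03 in replicate 2. Spps (FBgn0039169; 3R 24223445 to 24226934), an Sp1-like factor for pairing-sensitive silencing that binds Polycomb response elements, had a strongest pooled signal of 18.4 in a coding exon, with 13.7 in replicate 2 and no ranked region of replicate 1 at that place. Among all 13945 genes ordered by their strongest region in the replicate comparison, cbt had rank 3 together with ush. dar1 had rank 277, luna 864, Sp1 2179, btd 3443, Klf15 7386 and Spps 11646. The median gene had 31.1, so the strongest pooled regions of Klf15 and Spps were below it. Single replicates differed: in replicate 1 Klf15, with 18.8, was above the median gene at 18.2. In replicate 2 btd, with 15.98, was below the median gene at 16.9 and about level with Spps at 15.91. Each gene's strongest region is a maximum over unequal numbers of ranked regions, 177 at luna, 37 at Sp1, 33 at dar1, 14 at cbt, 13 at btd, 9 at Klf15 and 5 at Spps. The strongest regions of both replicates overlapped for 3 of the 7 genes, cbt, dar1 and Klf15. Those of Klf15 scored only 80 in replicate 1 and 26 in replicate 2. The share of all genes with such an overlap is not given here, so nothing is read from this count.

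Near the TSS alone, within 1 kb, the order by pooled signal was different. cbt had 211, rank 186 of all genes by the strongest region there, and btd 40.5, rank 2116. dar1 had 29.8 and luna 28.4, above the median gene at 24.8, while Sp1 (19.1), Klf15 (15.8) and Spps (11.0) were below it. At dar1, luna, btd and Spps the replicates fell on different sides of their median gene, though luna was close to it in both. The share of all genes that did so is not given here. In replicate 1 dar1 had no ranked region within 1 kb, while Spps, with 17.0, and luna, with 13.9, were above the median gene at 13.8. In replicate 2 btd, with 9.51, and luna, with 12.9, were below the median gene at 13.1, and Sp1 had no ranked region there. None of the 2 conservative family peaks lay within 1 kb of a TSS, beside 860 of 1799 conservative peaks (47.8%).

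**Figure D5:**
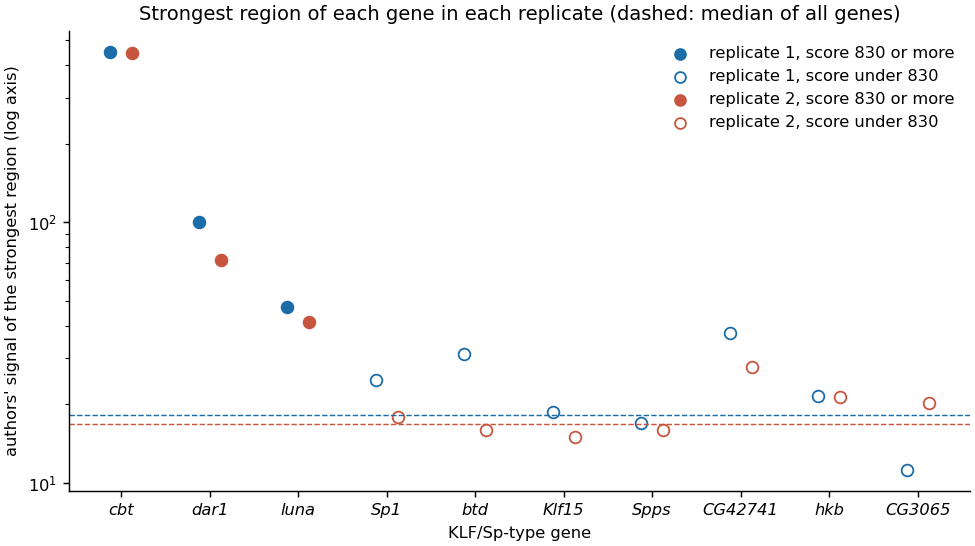
The authors' signal (log axis) of the strongest region of each KLF/Sp-type gene in replicate 1 and replicate 2, with filled points for regions that passed and dashed lines at the median of the strongest region over all genes (18.2 in replicate 1, 16.9 in replicate 2). cbt stands at 449 and 444, dar1 at 99.8 and 71.8 and luna at 47.2 and 41.2 in replicates 1 and 2; no other gene had a filled point.

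Of the further KLF/Sp-type genes CG42741, hkb and CG3065, 1 had a conservative peak, beside 10.2% of all genes. CG42741 (FBgn0261705; 2R 23011078 to 23042943), an uncharacterised KLF-type gene, had a conservative peak in a coding exon at 2R 23012617 to 23012952, with a pooled signal of 60.8 and a score of 834, just past the minimum. Its signal was 37.1 in replicate 1 and 22.3 in replicate 2, and neither replicate's own thresholded list held it. The twi gene spans the same bases. In the optimal list this region scored 936. That list also held a second CG42741 peak, in an intron at 2R 23020353 to 23020688, with 55.7 and a score of 882. That summit lies in twi too. The gap gene hkb, with 32.8, and CG3065, with 27.6, had no passing region.

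Genes tied to the family by function gave a mixed picture. Of 7 circadian clock genes, 3 had a conservative peak, beside 10.2% of all genes. Pdp1 had the strongest of them, at 131, in an intron at 3L 7863781 to 7864116. vri had 92.7 and Clk 70.5. Of 7 matched genes for proteins that bind Polycomb response elements, as Spps does, 3 had a conservative peak. Trl, which encodes GAGA factor, had 541, psq had 78.6 and grh had 66.0. In the optimal list 2 of those 7 did, without grh. None of 5 sugar-response genes (Mondo, bigmax, sug, Pepck1 and Pepck2) had a conservative peak. None of 4 matched genes listed under Sin3 corepressor (Sin3A, Sap130, HDAC1 and ebi) had one. Nor did any of 5 listed under head gap (oc, ems, hkb, slp1 and slp2). Of 8 leg and ventral appendage genes hth alone did, with 53.1, and in the optimal list none did. These lists are short, and nothing particular to them is read from the counts.

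The genes most like cbt were found by the distance between the log2 signals of their strongest passing region in the 4 ranked lists. ush shares the region and so was at 0. Ugalt was at 0.27, CG7601 at 0.41, CG14100 at 0.52 and CG16753 at 0.84, the last tied with CG32486, which shares its region. Ugalt had 523 in replicate 1 and 414 in replicate 2, and CG7601 had 389 in replicate 1 and 381 in replicate 2. Unlike the cbt regions, the regions of Ugalt, CG7601 and CG14100 were in the conservative list.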

How the data were processed

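ChIP-seq regions of 2 replicates of CG10348-eGFP pupae were used. Per the deposited text, the authors made each list from the replicates' alignments and 1 control, and the thresholded lists also from a further file. The peak caller and aligner are not given in the sources used here. The deposited signal is the authors' peak strength. The deposited score is their scaled IDR, capped at 1000, and the deposited −log10 column gives the IDR. No read counts are in the lists, so depth was unknown. Positions are on dm6, per the labels, counted from 1.

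Genes were taken from Ensembl release 115 and sequence from the RefSeq genome of the same assembly. All deposited coordinates on the main arms fitted its chromosome lengths. The ranked list of the replicate comparison was taken as the one that holds every conservative peak with the same score. Each replicate's signal at a pooled region is that of the strongest overlapping region in its own ranked list. Words were sought on both strands. The assignment of summits to genes was checked on simulated summits. No significance test was made on the data.

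The genes and lists were chosen with earlier results of these data known. Named genes were the family, the other KLF/Sp-type genes, the nearest other gene of each family peak, list members with a peak, and the 5 genes nearest to cbt by log2(signal + 1). In the 4 thresholded lists cbt was at 0, as were 12240 other genes, so that measure was applied to the ranked lists after the data were seen. Other names were chosen after their values were seen. CG9895 is an older name of CG42741, and 2 list names had no match (dsp1 and Pf1). Alternatives changed distance, score, peak list, window and replicate. Analyses used Python 3.11.15 and pandas 2.3.3.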

Additional observations from a re-analysis of the deposited data

How the results depend on the processing

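The counts changed with both the kind of list and the score minimum, and a minimum of 540 or 1000 changes both at once. In place of 0 cbt peaks in the conservative and optimal lists, the ranked lists gave 2 in each case at a score of 540 or more, at 830 or more (an alternative added after seeing the data) and at 1000. In place of 2 family peaks in the conservative list, the ranked list gave 7 at 540, 4 at 830 and 4 at 1000. In place of 3 in the optimal list, it gave 9 at 540 and 5 at 830. With the nearest TSS as the only criterion, the conservative and optimal lists gave 1 family peak each and 1 member gene in place of 2, since the luna peaks lie nearer to CG43188. Each replicate alone gave 2 family peaks and 0 cbt peaks. The GC difference of the 2 conservative family summits, -5.0 points, changed sign to 3.5 points in 50 bp windows. It was -2.8 points in 200 bp windows, -2.2 with flanks at 500 bp and -15.4 with the cbt regions included, so a mean over so few summits has no firm size or sign. No paired analysis was possible because there was 1 group. Unknown depth limits how low a binding level could have been detected at Klf15, Spps, Sp1 and btd.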

Other observations

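A stretch of luna held no ranked region in any of the 4 ranked lists. No summit lay between 2R 11009743 and 11019448, 9.7 kb of the gene. In single replicates the empty stretch was longer. Counted from the 5′ end of luna, it ran from 87263 to 107090 bp in replicate 1 and from 91017 to 106635 bp in replicate 2. Of the bases in the 9.7 kb, 94.9% were soft-masked as repeats in the RefSeq genome, against 19.1% in the part of luna toward the 3′ end from there. The masked share of the part toward the 5′ end is not given here. The part of repeats in this absence was not tested.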
